A study of Mus musculus with 9 samples.

Results

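Bile acid synthesis and uptake were followed through 7 hepatocyte genes in mouse liver tumours: Cyp7a1, Cyp8b1, Cyp27a1, Slc27a5, Baat, Slc10a1 and Nr0b2. They were chosen by symbol, which found 7 of the 32761 genes in the deposited expression table, 1 row each. All 7 were among the 15353 genes tested, the filter being an average over the 9 libraries of 0.5 FPKM or more (fragments scaled by transcript length and by library total). Nr0b2 met this filter only through the Lenvatinib+anti-PD1 group, as its mean was under 0.5 FPKM in each other group. The tumours grew in the mouse liver from Hepa1-6-luc, a mouse hepatoma cell line that carries luciferase, and were collected at day 14 of the study. The Co+Len@OVA+anti-PD1 group received a drug-loaded nanocluster (2 mg/mL, into the tail vein) every 3 days and an antibody against PD1, an inhibitory receptor of T cells, at 50 µg per injection every 4 days. The Lenvatinib+anti-PD1 group received the same antibody at the same dose and interval. Its free lenvatinib, an inhibitor of VEGF and FGF receptor kinases, was given every 3 days at a concentration matched to the nanocluster. The Control group carried the same tumours, and its handling is not described further in the labels. Each group has 3 libraries. The labels give neither the strain nor the age of the mice, nor do they spell out the letters Co, and no sequenced group received the antibody alone. Nothing in the labels ties a library to a single animal, so p-values measure the spread between these libraries.

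Bile acids are made from cholesterol in hepatocytes. Cyp7a1, the rate-limiting cholesterol 7α-hydroxylase, opens the classic route, and Cyp8b1, the sterol 12α-hydroxylase, sets how much of the product becomes cholic acid. Cyp27a1, a mitochondrial sterol 27-hydroxylase, opens the alternative route, oxidises the side chain in both routes and is also active in macrophages. Slc27a5 activates bile acids with coenzyme A, Baat joins them to taurine or glycine, and Slc10a1, the sodium-taurocholate cotransporter NTCP, brings conjugated bile acids back from the blood. Nr0b2 encodes SHP, a repressor induced by the bile acid receptor FXR (Nr1h4), which lowers Cyp7a1 and Cyp8b1 transcription in normal liver.

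The libraries are not equally distinct. Where libraries 1 and 2 of a group differed more than 4-fold, the value of library 3 was intermediate for 97.3% of 369 such genes (Co+Len@OVA+anti-PD1), 97.5% of 316 (Lenvatinib+anti-PD1) and 93.5% of 355 (Control). Values without the third libraries are therefore given beside the counts below. Among the 7 genes, library 3 was intermediate for 2 in Co+Len@OVA+anti-PD1, 1 in Lenvatinib+anti-PD1 and 7 in Control. Whether library 3 is an independent tumour is not known. If it is not, the SDs and p-values below are too small. Control libraries 1 and 2 were far apart for 6 of the 7 genes, with library 1 the higher, and values without each are given where they differ. For Nr0b2, Control libraries 1 and 3 were close and library 2 was lower. Of 37 hepatocyte markers tested, the summed level per library was 954 to 1322 FPKM in Co+Len@OVA+anti-PD1, 5732 to 6078 FPKM in Lenvatinib+anti-PD1, and 8084, 3298 and 4999 FPKM in Control libraries 1, 2 and 3. In bulk tissue, fewer cells that make these genes and less of their RNA per cell cannot be told apart. Whether the RNA came from liver tissue in the pieces or from the tumour cells was not tested. The hepatoma marker Afp was present in all libraries, at 233 to 240 FPKM in Co+Len@OVA+anti-PD1, 339 to 385 FPKM in Lenvatinib+anti-PD1 and 368 to 439 FPKM in Control, while Spink1, another marker of that list, was listed at 0 in all 3 Control libraries. The list went both ways between Co+Len@OVA+anti-PD1 and Control. Afp and Cd24a were lower without overlap, while Gpc3, Igf2 and Dlk1 were higher without overlap, and H19, Tff3 and Spink1 overlapped. Means in these groups were 84.2 and 118 FPKM for Cd24a, 2.07 and 1.48 FPKM for Gpc3, and 1.64 and 0.273 FPKM for Igf2. Adjusted p by limma was 0.632 for Gpc3 and 0.0562 for Igf2, and Dlk1 was too low to be tested.

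RefSeq promoter sequence (build GRCm38.p6) was at hand for 4 of the 7 genes, with 5 start sites. These promoters are shown because their sequence was at hand, and the values of their genes played no part in the choice. The 250 bases before each start are written 5′ to 3′ on the gene's strand, in lower case, with capitals marking matches to 8 short motifs on either strand. The motifs were TATAAA of the TATA box, CCAAT of the CCAAT box, TCAAGG of LRH-1, the nuclear receptor half-sites AGGTCA and AGTTCA, the letters CAAAGT of HNF4 sites, GTTAAT of HNF1 sites, and the FXR motif IR1, an inverted repeat that contains AGGTCA and so overlaps it.
Cyp8b1, chr9:121916306-121916555, minus strand: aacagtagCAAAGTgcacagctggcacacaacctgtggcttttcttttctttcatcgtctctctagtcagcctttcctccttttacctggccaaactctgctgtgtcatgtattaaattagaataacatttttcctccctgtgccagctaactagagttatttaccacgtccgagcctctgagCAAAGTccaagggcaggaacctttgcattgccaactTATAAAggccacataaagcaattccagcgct
Cyp27a1, chr1:74713285-74713534, plus strand: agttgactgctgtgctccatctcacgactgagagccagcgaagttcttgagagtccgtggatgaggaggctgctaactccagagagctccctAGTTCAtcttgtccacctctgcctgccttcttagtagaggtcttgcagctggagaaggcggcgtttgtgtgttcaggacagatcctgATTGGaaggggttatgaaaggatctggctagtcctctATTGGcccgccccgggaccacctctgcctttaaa
Slc10a1, first start, chr12:80968706-80968955, minus strand: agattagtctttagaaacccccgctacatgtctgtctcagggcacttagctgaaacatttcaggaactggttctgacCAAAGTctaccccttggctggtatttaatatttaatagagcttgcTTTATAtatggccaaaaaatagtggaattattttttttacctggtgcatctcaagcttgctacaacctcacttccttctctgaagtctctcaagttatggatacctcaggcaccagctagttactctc
Slc10a1, second start, chr12:80968080-80968329, minus strand: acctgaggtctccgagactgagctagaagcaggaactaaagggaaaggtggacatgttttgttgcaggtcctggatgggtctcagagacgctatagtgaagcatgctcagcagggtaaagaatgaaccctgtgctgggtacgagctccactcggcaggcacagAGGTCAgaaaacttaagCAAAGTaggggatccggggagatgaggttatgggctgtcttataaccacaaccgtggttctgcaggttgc
Nr0b2, chr4:133553126-133553375, plus strand: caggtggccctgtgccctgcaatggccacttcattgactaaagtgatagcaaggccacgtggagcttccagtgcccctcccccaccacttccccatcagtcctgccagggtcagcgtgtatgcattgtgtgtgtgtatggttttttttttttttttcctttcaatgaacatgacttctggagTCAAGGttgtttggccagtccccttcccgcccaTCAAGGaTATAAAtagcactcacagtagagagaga
Cyp8b1 and Nr0b2 held TATAAA shortly before the start, at -31 and -28, where a TATA box usually lies. Nr0b2 also held TCAAGG, the core letters bound by the nuclear receptor LRH-1 (Nr5a2), at -68 and -35. Cyp8b1 held CAAAGT at -242 and -67, and each Slc10a1 start held it once, at -173 and at -70. Cyp27a1 held no TATAAA, and instead held CCAAT on the opposite strand (printed as ATTGG) at -71 and -34. Of the 32851 start sites in the same RefSeq table, 12.4% held TATAAA in this window, 33.8% held CCAAT, 12.5% held TCAAGG, 14.0% held AGGTCA, 11.8% held AGTTCA, 12.6% held CAAAGT and 6.43% held GTTAAT, while 2 starts held IR1. A match is a description of the letters and says nothing of binding in these tumours.

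Cyp7a1 and Cyp8b1, 2 enzymes of the classic route, were nearly silent in the nanocluster group. Cyp7a1 (ENSMUSG00000028240) was at 0.0578, 0.112 and 0.103 FPKM in Co+Len@OVA+anti-PD1, 2.79, 2.45 and 2.97 FPKM in Lenvatinib+anti-PD1, and 2.24, 0.400 and 1.03 FPKM in Control. Cyp8b1 (ENSMUSG00000050445) was at 0.102, 0.181 and 0.204 FPKM in Co+Len@OVA+anti-PD1, 7.32, 6.35 and 7.73 FPKM in Lenvatinib+anti-PD1, and 6.68, 0.687 and 2.93 FPKM in Control. For both genes every Co+Len@OVA+anti-PD1 library was below every other library, and the Control libraries were spread widely, with library 1 high and library 2 low. Cyp8b1 in Control library 1 lay within the Lenvatinib+anti-PD1 range, whereas every Control value of Cyp7a1 was below that range. Cyp8b1 stood above Cyp7a1 in each of the 9 libraries, on the length-scaled FPKM. Their ratio was 1.79 ± 0.185 in Co+Len@OVA+anti-PD1, 2.61 ± 0.0165 in Lenvatinib+anti-PD1 and 2.51 ± 0.694 in Control (SD, n = 3 each).

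Cyp27a1, the enzyme of the alternative route, kept the highest level, and its mean was not higher in Lenvatinib+anti-PD1 than in Control. Cyp27a1 (ENSMUSG00000026170) was at 12.2, 9.88 and 10.2 FPKM in Co+Len@OVA+anti-PD1, 19.8, 23.2 and 20.7 FPKM in Lenvatinib+anti-PD1, and 39.4, 20.3 and 27.3 FPKM in Control. The nanocluster libraries were the lowest and did not overlap with either other group. Lenvatinib+anti-PD1 and Control overlapped, so the order of these neighbours was not resolved.

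The conjugation genes and the uptake transporter shared the pattern of Cyp7a1 and Cyp8b1 at higher levels. Slc27a5 (ENSMUSG00000030382) was at 0.227, 0.410 and 0.446 FPKM in Co+Len@OVA+anti-PD1, 15.0, 14.7 and 14.3 FPKM in Lenvatinib+anti-PD1, and 12.9, 2.46 and 5.93 FPKM in Control. Baat (ENSMUSG00000039653) was at 0.333, 0.297 and 0.442 FPKM in Co+Len@OVA+anti-PD1, 10.003, 9.44 and 10.3 FPKM in Lenvatinib+anti-PD1, and 9.23, 3.54 and 5.16 FPKM in Control. Slc10a1 (ENSMUSG00000021135) was at 0.461, 0.412 and 0.492 FPKM in Co+Len@OVA+anti-PD1, 13.8, 14.0 and 14.3 FPKM in Lenvatinib+anti-PD1, and 14.6, 4.04 and 7.62 FPKM in Control. All 3 genes stayed under 0.5 FPKM in every nanocluster library, and none of these libraries overlapped with another group. Control library 1 approached the Lenvatinib+anti-PD1 level of Slc27a5 and Baat and passed it for Slc10a1, while Control library 2 was the lowest of its group for all 3.

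Nr0b2, the repressor, was the gene with the clearest separation of all 3 groups. Nr0b2 (ENSMUSG00000037583) was listed at 0 in Co+Len@OVA+anti-PD1 libraries 1 and 2 and at 0.0345 FPKM in library 3, at 3.27, 2.55 and 3.65 FPKM in Lenvatinib+anti-PD1, and at 0.516, 0.343 and 0.503 FPKM in Control. No 2 groups overlapped, and the Control libraries were closer to each other than for the other genes. The highest Control library was 1.51 times the lowest for Nr0b2, against up to 9.72 times for Cyp8b1. For all 7 genes the order within Control was library 1, then 3, then 2. Within Lenvatinib+anti-PD1 the highest library was only 1.03 to 1.43 times the lowest.

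**Figure D1:**
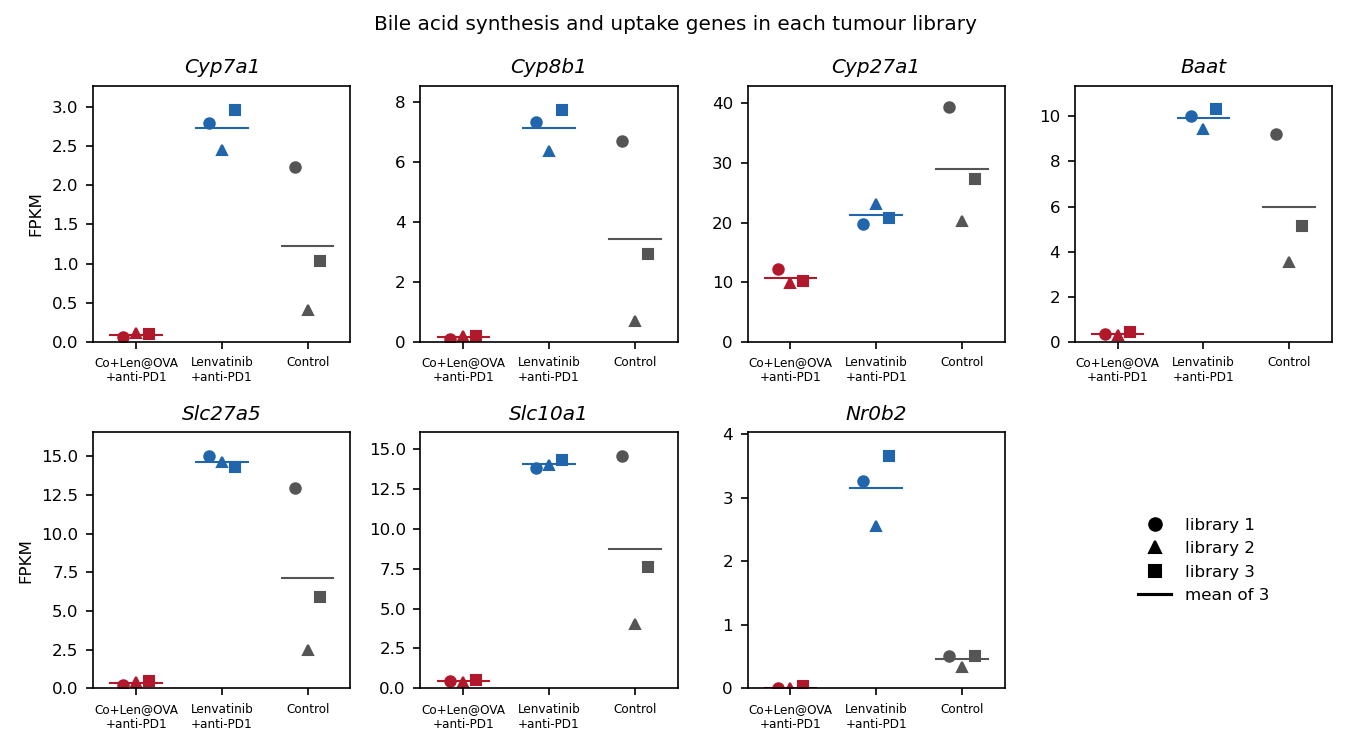
FPKM of each gene (vertical axes, 1 panel per gene) in the 3 libraries of each group (circle, triangle and square for libraries 1, 2 and 3), with the group mean as a line. The Co+Len@OVA+anti-PD1 points are the lowest in all 7 panels, and the Control points of Cyp8b1 spread from 0.687 to 6.68 FPKM.

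Against Control, all 7 genes fell in Co+Len@OVA+anti-PD1, in a comparison where 12.7% of the tested genes were called lower and 33.6% were called either way. For all 7 the groups did not overlap, as for 17.3% of the tested genes in this direction. Fold changes are differences of log2(FPKM + 0.5), with standard error and limma's adjusted p over all tested genes, and a gene is called at an adjusted p under 0.05. On this scale the change of a gene near 0 appears smaller than it is. Slc10a1, the uptake transporter, had the most negative value, -3.11 ± 0.36 (adjusted p = 0.000806), and its mean FPKM was 19.2 times lower than in Control. The conjugation genes followed, with Slc27a5 at -2.89 ± 0.46 (adjusted p = 0.00309) and Baat at -2.83 ± 0.27 (adjusted p = 0.000402). On the same scale Cyp8b1 changed by -2.22 ± 0.54 (adjusted p = 0.0171) and Cyp7a1 by -1.40 ± 0.34 (adjusted p = 0.0175). Their mean FPKM were 21.1 and 13.4 times lower than in Control, which shows how far the added 0.5 compresses a change at this level. Cyp27a1 changed by -1.35 ± 0.21 (adjusted p = 0.00305), and its mean was 2.70 times lower. Nr0b2 changed by -0.89 ± 0.16 (adjusted p = 0.00468), a fitted value that depends on the added 0.5 because the gene was listed at 0 in 2 libraries. The median over the 7 genes was -2.22, beside 0.13 over all tested genes. Leaving out Control library 1 gave -1.61 for Cyp8b1, -0.99 for Cyp7a1 and -2.35 for Slc27a5, with mean FPKM 11.1, 7.87 and 11.6 times lower, and leaving out Control library 2 gave -2.91, -1.79 and -3.44, with means 29.5, 18.0 and 26.1 times lower. All 7 genes passed the threshold in both cases. With libraries 1 and 2 of each group alone, none of the 7 passed limma's threshold, 7 had an unadjusted p under 0.05, and all kept the negative sign. Without Co+Len@OVA+anti-PD1 library 3 alone, Cyp7a1 (adjusted p = 0.0535) and Cyp8b1 (adjusted p = 0.0509) missed the threshold, and without Control library 3 Cyp8b1 did (adjusted p = 0.0532).

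Against Control, Nr0b2 was the only gene of the 7 that passed the threshold in Lenvatinib+anti-PD1, where it rose, in a comparison with 13.8% of the tested genes called higher, 9.87% called lower and 23.7% called either way. Its mean FPKM was 3.16 ± 0.559 in Lenvatinib+anti-PD1 and 0.454 ± 0.0966 in Control (SD, n = 3 each), a ratio of 6.96, and the log2 difference was 1.93 ± 0.16 (adjusted p = 0.000238 by limma). This was the reverse of its direction in the nanocluster group. Nr0b2 was tested at all only because of its Lenvatinib+anti-PD1 level, its means in the other groups being under the filter of 0.5 FPKM. The other genes did not pass the threshold. Slc27a5 differed by 1.26 ± 0.46 (adjusted p = 0.0819), Cyp8b1 by 1.31 ± 0.54 (adjusted p = 0.117) and Cyp7a1 by 1.05 ± 0.34 (adjusted p = 0.0598). Baat differed by 0.78 ± 0.27 (adjusted p = 0.0735), Slc10a1 by 0.82 ± 0.36 (adjusted p = 0.131) and Cyp27a1, the only negative value, by -0.39 ± 0.21 (adjusted p = 0.216). Cyp7a1, Baat, Slc27a5 and Nr0b2 were higher in every Lenvatinib+anti-PD1 library than in every Control library, as were 26.1% of all tested genes. The values moved with both Control library 1 and Control library 2. Without library 1 6 of the 7 rose, all except Cyp27a1, with log2 differences of 1.46 for Cyp7a1 (adjusted p = 0.00324), 1.92 for Cyp8b1 (adjusted p = 0.00917), 1.80 for Slc27a5 (adjusted p = 0.00401), 1.12 for Baat (adjusted p = 0.00175) and 1.26 for Slc10a1 (adjusted p = 0.00443). Without Control library 2 they were smaller and none of these 5 passed, at 0.66 for Cyp7a1, 0.62 for Cyp8b1, 0.71 for Slc27a5, 0.49 for Baat and 0.40 for Slc10a1, while Cyp27a1 fell by 0.62 (adjusted p = 0.0357). With libraries 1 and 2 alone Nr0b2 had a similar difference of 1.87 but an adjusted p of 0.0821.

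Set against free lenvatinib with the same antibody, all 7 genes fell in Co+Len@OVA+anti-PD1, with 12% of the tested genes called lower and 29.4% called either way. None of the 7 had overlapping groups, and 20.4% of the tested genes were lower without overlap. Both treatment comparisons with Control share the Control libraries, and this comparison does not use them as a group. Slc27a5 had the most negative value, -4.15 ± 0.46 (adjusted p = 0.000508), followed by Slc10a1 at -3.93 ± 0.36 (adjusted p = 0.000203) and Baat at -3.61 ± 0.27 (adjusted p = 8.05e-05). Their mean FPKM were 40.6, 30.9 and 27.7 times lower in the nanocluster group. Of the classic route, Cyp8b1 differed by -3.53 ± 0.54 (adjusted p = 0.00259) and Cyp7a1 by -2.45 ± 0.34 (adjusted p = 0.00163), or 43.9 and 30.1 times in mean FPKM. Nr0b2 had the smallest adjusted p of the 7, at -2.83 ± 0.16 (adjusted p = 1.73e-05). Cyp27a1 had the smallest difference, -0.96 ± 0.21 (adjusted p = 0.0131), with a mean 1.98 times lower. The median of the 7 was -3.53, beside 0.07 over all tested genes. With libraries 1 and 2 alone, Baat, Slc10a1 and Nr0b2 remained past the threshold, and without Co+Len@OVA+anti-PD1 library 3 Cyp27a1 missed it (adjusted p = 0.0511).

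**Figure D2:**
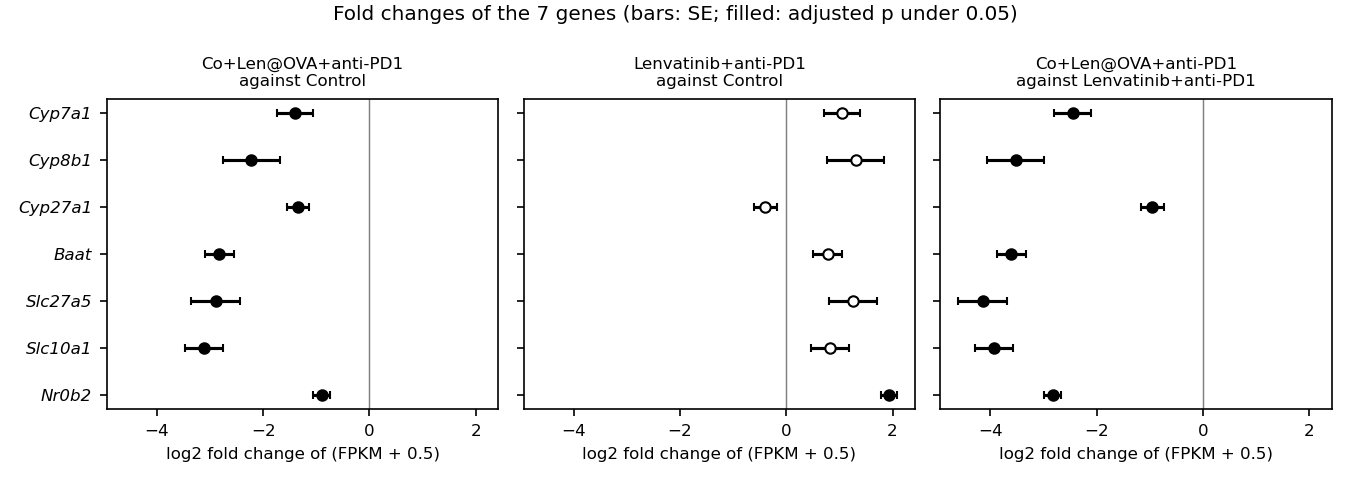
Difference of log2(FPKM + 0.5) for each gene (points, with the standard error as whiskers, filled where the adjusted p is under 0.05) in the 3 comparisons. All 7 genes lie below 0 in both comparisons of Co+Len@OVA+anti-PD1, and 6 of 7 lie above 0 for Lenvatinib+anti-PD1 against Control, where only Nr0b2 passed the threshold.

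The bile acid genes moved with the other hepatocyte genes. Of the 37 hepatocyte markers, none of which is among the 7, 35 fell and 0 rose in Co+Len@OVA+anti-PD1 against Control, with a median log2 difference of -2.86. In Lenvatinib+anti-PD1 against Control 13 rose and 1 fell, with a median of 0.73, and 22 rose when Control library 1 was left out. In Co+Len@OVA+anti-PD1 against Lenvatinib+anti-PD1 36 fell, with a median of -4.02. Over all tested genes 12.7% were called lower and 20.9% higher in the first of these comparisons. The shares were 9.87% and 13.8% in the second, and 12% and 17.3% in the third. When the third libraries were left out, 5 markers fell in the nanocluster group and 3 rose in Lenvatinib+anti-PD1 against Control, and 23 fell between the treatments. Far fewer of all tested genes were called in that setting too, with the counts given below. The 7 genes lay within the range of these markers. In the nanocluster group against Control, 15 of the 37 markers had a more negative value than Slc10a1, 17 than Slc27a5, 20 than Baat and 24 than Cyp8b1. Cyp7a1, Cyp27a1 and Nr0b2 lay nearer to the upper end, with 32, 32 and 34 markers more negative. For Cyp7a1 and Nr0b2, near or at 0 FPKM in the nanocluster group, the added 0.5 compressed the change. Their mean FPKM were 13.4 and 39.5 times lower than in Control, against 2.70 times for Cyp27a1. Albumin itself (Alb) was at 630, 908 and 781 FPKM in Co+Len@OVA+anti-PD1, 2019, 1937 and 2084 FPKM in Lenvatinib+anti-PD1, and 3386, 1686 and 2285 FPKM in Control.

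Cyp27a1 had a smaller difference than most hepatocyte markers in the nanocluster group. For each library, its log2(FPKM + 0.5) was taken relative to the median of the 37 hepatocyte markers. That relative level was 2.36, 1.59 and 1.57 in Co+Len@OVA+anti-PD1, -1.55, -1.08 and -1.48 in Lenvatinib+anti-PD1, and -0.18, 0.11 and 0.0075 in Control. The 3 groups did not overlap, with Co+Len@OVA+anti-PD1 highest and Lenvatinib+anti-PD1 lowest. Against Control the difference was 1.86 in Co+Len@OVA+anti-PD1 and -1.35 in Lenvatinib+anti-PD1, and between the treatments it was 3.21. Each had an exact two-sided permutation p of 0.1, the smallest that 3 against 3 allows, and 0.162 after Benjamini-Hochberg adjustment over the 21 tests of 7 genes in 3 comparisons. All 3 differences kept their sign under every alternative run, but with Alb as the only marker they were 0.28, -0.16 and 0.44 and the groups overlapped in each comparison. A relative level above that of Control without overlap was shared by 99.2% of the tested genes outside the marker list in Co+Len@OVA+anti-PD1, where the markers themselves were lower, and a level below Control by 47% in Lenvatinib+anti-PD1. Cyp27a1 was also 23.7 ± 2.88 times the FPKM of Slc10a1 in Co+Len@OVA+anti-PD1, 1.51 ± 0.122 times in Lenvatinib+anti-PD1 and 3.76 ± 1.17 times in Control (SD, n = 3 each). By the same measure Nr0b2 differed by 2.31 and Cyp7a1 by 1.80 between Co+Len@OVA+anti-PD1 and Control, without overlap, but both were near or at 0 FPKM in the nanocluster group, where the added 0.5 sets the value. For each of the other 6 genes the sign of the relative difference turned in at least 1 comparison with the pseudocount or the marker summary used.

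Cyp27a1 is also active in macrophages, and the summed macrophage markers were higher in Co+Len@OVA+anti-PD1 than in Lenvatinib+anti-PD1. The summed FPKM of the 10 macrophage and Kupffer cell markers was 980.5 to 1153 per library in Co+Len@OVA+anti-PD1, 309 to 340 in Lenvatinib+anti-PD1, and 223, 1023 and 750.5 in Control libraries 1, 2 and 3. The largest parts of the sum in Co+Len@OVA+anti-PD1 were C1qa, C1qb and C1qc, with means of 372, 363 and 180 FPKM. In Co+Len@OVA+anti-PD1, 5 of the 10 rose and 2 fell against Lenvatinib+anti-PD1, and 1 rose and 2 fell against Control. Clec4f and Vsig4 fell in both comparisons. Clec4f averaged 0.145 FPKM in Co+Len@OVA+anti-PD1 and 8.06 FPKM in Lenvatinib+anti-PD1, and Vsig4 1.04 and 4.05 FPKM. Of all tested genes 17.3% were called higher and 12% lower between the treatments, and 20.9% and 12.7% against Control. The macrophage counts against Control were therefore not particular to these markers. Without Control library 1, 2 rose against Control, and with libraries 1 and 2 alone 0 rose in either comparison. Within Control, library 1 had the lowest macrophage sum and the highest Cyp27a1. The part of these cells in the relative level of Cyp27a1 was not tested. Muscle markers summed to 31.1, 4369 and 1736 FPKM in Lenvatinib+anti-PD1 libraries 1, 2 and 3. For the 7 genes the highest library of this group was 1.03 to 1.43 times the lowest. Library 2 was the lowest for Cyp7a1, Cyp8b1, Baat and Nr0b2 and the highest for Cyp27a1. Any part of muscle content in these values was not tested.

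**Figure D3:**
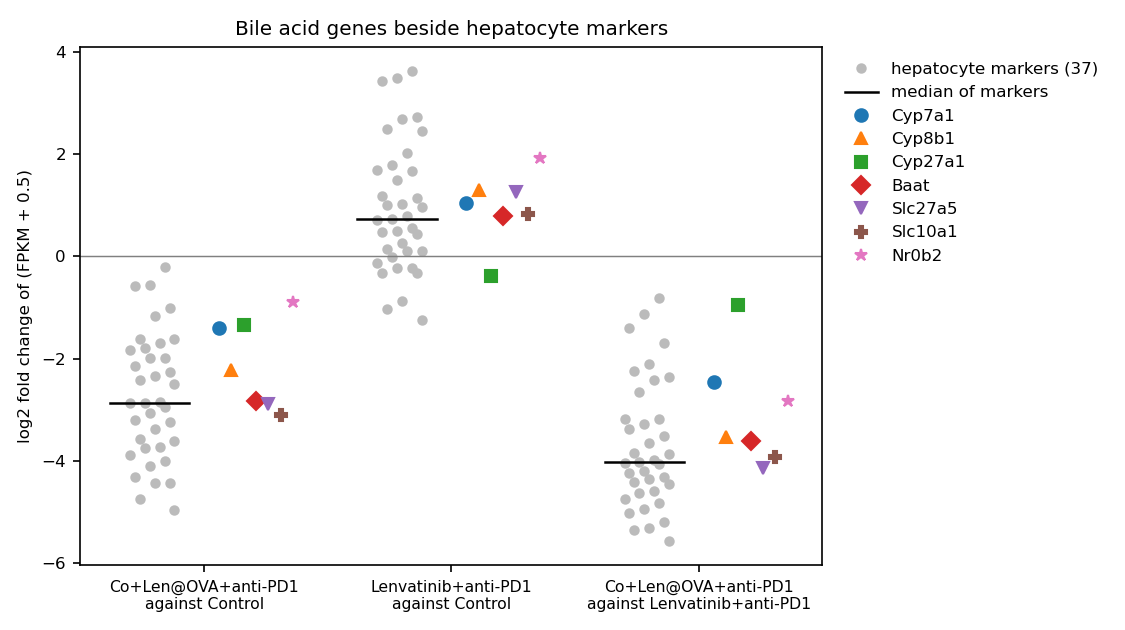
Log2 differences of the 7 bile acid genes (coloured symbols) beside the 37 hepatocyte markers (grey points, with their median as a line) in the 3 comparisons. The bile acid genes fall within the spread of the markers, and Cyp27a1 lies near the upper end in both comparisons of Co+Len@OVA+anti-PD1 and near the lower end for Lenvatinib+anti-PD1 against Control.

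Across the 9 libraries, Cyp7a1, Cyp8b1, Slc27a5, Baat and Slc10a1 had closely similar profiles. Pearson's r of log2(FPKM + 0.5) among these 5 was 0.96 to 1.00 over 10 pairs, a description of 9 libraries that share 3 group means. With Cyp27a1 the other genes except Nr0b2 had r of 0.76 to 0.88, with Nr0b2 they had 0.85 to 0.91, and Cyp27a1 with Nr0b2 had 0.49. Among the tested genes averaging 1 FPKM or more, those most like Cyp7a1 were Aspg (0.997), Agxt (0.997) and Cyp8b1 (0.996), and those most like Cyp8b1 were Aspg (0.997), Cyp7a1 (0.996) and Ugt2a3 (0.995). The genes most like Baat were Uox, Cyp3a11 and Ces1c, those most like Slc27a5 were Cyp2c50, Ttc36 and Cyp3a25, and those most like Slc10a1 were Cyp3a11, Cfhr2 and Etnk2, all at 0.998 or 0.999. Cyp27a1 had a different set, Ltbr (0.990), Cryz (0.982) and Sds (0.981), as did Nr0b2, with Cyp2a5 (0.996), Ppa1 (0.996) and Selenbp2 (0.995).

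Many, but not all, of the other enzymes of the pathway shared the fall of the 7 genes in the nanocluster group. Of 15 further enzymes tested, 8 fell and 2 rose in Co+Len@OVA+anti-PD1 against Control, 9 rose and 1 fell in Lenvatinib+anti-PD1 against Control, and 11 fell and 1 rose in Co+Len@OVA+anti-PD1 against Lenvatinib+anti-PD1. The median log2 differences were -0.70, 0.70 and -0.99. Among all tested genes 12.7% were called lower and 20.9% higher in the first comparison. The shares were 9.87% and 13.8% in the second, and 12% and 17.3% in the third. Akr1c6, an aldo-keto reductase of the family of steroid-metabolising enzymes, averaged 1.22 ± 0.298 FPKM in Co+Len@OVA+anti-PD1, 48.3 ± 2.31 FPKM in Lenvatinib+anti-PD1 and 6.04 ± 1.19 FPKM in Control (SD, n = 3 each, as for the means that follow). It changed by -1.92 in the nanocluster group (adjusted p = 0.00021) and by 2.91 in Lenvatinib+anti-PD1 (adjusted p = 4.19e-05) against Control. Acox2, the peroxisomal oxidase that shortens the side chain, averaged 0.271 ± 0.0539 FPKM in Co+Len@OVA+anti-PD1, 4.80 ± 0.349 FPKM in Lenvatinib+anti-PD1 and 4.38 ± 0.581 FPKM in Control. It fell in the nanocluster group against Control by 2.66 on the log2 scale (adjusted p = 1.56e-05), and its difference of 0.12 for Lenvatinib+anti-PD1 did not pass (adjusted p = 0.467). Cyp2c70, which makes the muricholic acids of mice, averaged 0.331 ± 0.0437 FPKM in Co+Len@OVA+anti-PD1, 14.6 ± 0.369 FPKM in Lenvatinib+anti-PD1 and 6.90 ± 3.33 FPKM in Control. It changed by -3.06 (adjusted p = 0.000307) in the nanocluster group and by 1.12 (adjusted p = 0.0213) in Lenvatinib+anti-PD1 against Control.

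Ch25h had the opposite sign to Cyp7a1 and Cyp8b1 in the nanocluster group against Control, and Cyp7b1 and Hsd3b7 differed little there. Ch25h, the cholesterol 25-hydroxylase, which is induced in macrophages by interferon, averaged 5.99 ± 0.693 FPKM in Co+Len@OVA+anti-PD1, 3.03 ± 0.427 FPKM in Lenvatinib+anti-PD1 and 1.38 ± 0.415 FPKM in Control. It rose by 1.81 in the nanocluster group (adjusted p = 0.00043) and by 0.93 in Lenvatinib+anti-PD1 (adjusted p = 0.00856) against Control. Cyp7b1, the oxysterol 7α-hydroxylase, averaged 3.39 ± 0.308 FPKM in Co+Len@OVA+anti-PD1, 5.41 ± 0.46 FPKM in Lenvatinib+anti-PD1 and 3.24 ± 0.416 FPKM in Control. It rose by 0.66 in Lenvatinib+anti-PD1 against Control (adjusted p = 0.00483), and the difference of 0.06 for the nanocluster group did not pass (adjusted p = 0.698). Hsd3b7, the next enzyme of both routes, averaged 17.4 ± 0.0786 FPKM in Co+Len@OVA+anti-PD1, 22.2 ± 1.30 FPKM in Lenvatinib+anti-PD1 and 14.6 ± 1.44 FPKM in Control. It rose by 0.59 in Lenvatinib+anti-PD1 (adjusted p = 0.00187) and by 0.25 in the nanocluster group (adjusted p = 0.0402), the second of which did not pass with median-of-ratios scaling (adjusted p = 0.217).

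Of the 18 other transporters of bile acids and bile lipids, 13 were tested. In Co+Len@OVA+anti-PD1 7 fell and 1 rose against Control, in Lenvatinib+anti-PD1 6 rose and 1 fell against Control, and in Co+Len@OVA+anti-PD1 8 fell and 1 rose against Lenvatinib+anti-PD1. In these comparisons 12.7%, 9.87% and 12% of all tested genes were called lower, and 20.9%, 13.8% and 17.3% higher. Slco1b2, a sodium-independent uptake transporter of the sinusoidal membrane, was at 0.183, 0.391 and 0.401 FPKM in Co+Len@OVA+anti-PD1, 11.6, 12.2 and 12.2 FPKM in Lenvatinib+anti-PD1, and 1.79, 1.87 and 2.13 FPKM in Control. The 3 groups were well apart, and the Control libraries lay close together, unlike those of Slc10a1. Slco1b2 changed by -1.56 (adjusted p = 0.000178) in the nanocluster group and by 2.37 (adjusted p = 3.29e-05) in Lenvatinib+anti-PD1 against Control. Abcb11, the bile salt export pump, averaged 0.103 ± 0.0522 FPKM in Co+Len@OVA+anti-PD1, 4.13 ± 0.0237 FPKM in Lenvatinib+anti-PD1 and 0.985 ± 0.482 FPKM in Control, with changes of -1.25 (adjusted p = 0.00401) and 1.69 (adjusted p = 0.00151) against Control. Abcb4, which exports phosphatidylcholine into bile, changed by -1.47 (adjusted p = 0.000569) and 0.95 (adjusted p = 0.00447) in the same comparisons. Abcc3, an exporter of the basolateral membrane, averaged 16.0 ± 2.71 FPKM in Co+Len@OVA+anti-PD1, 11.4 ± 0.48 FPKM in Lenvatinib+anti-PD1 and 19.5 ± 1.05 FPKM in Control. It fell in Lenvatinib+anti-PD1 against Control by 0.75 on the log2 scale (adjusted p = 0.00321).

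Calls among the regulators went both ways. Of 21 regulators 19 were tested, of which 7 fell and 3 rose in Co+Len@OVA+anti-PD1 against Control, 2 fell and 2 rose in Lenvatinib+anti-PD1 against Control, and 7 fell and 3 rose in Co+Len@OVA+anti-PD1 against Lenvatinib+anti-PD1. Over all tested genes 12.7% were called lower and 20.9% higher in the first comparison, 9.87% and 13.8% in the second, and 12% and 17.3% in the third, so the regulators' counts for Lenvatinib+anti-PD1 against Control were near those of all genes. Nr1h4 (FXR), the bile acid receptor that induces Nr0b2, averaged 0.653 ± 0.146 FPKM in Co+Len@OVA+anti-PD1, 6.50 ± 0.648 FPKM in Lenvatinib+anti-PD1 and 2.99 ± 0.47 FPKM in Control. It changed by -1.60 (adjusted p = 0.000276) in the nanocluster group and by 1.01 (adjusted p = 0.00231) in Lenvatinib+anti-PD1 against Control, the same signs as Nr0b2. Nr5a2 (LRH-1), an activator of Cyp7a1 and Cyp8b1, averaged 1.66 ± 0.0771 FPKM in Co+Len@OVA+anti-PD1, 2.95 ± 0.291 FPKM in Lenvatinib+anti-PD1 and 2.75 ± 0.385 FPKM in Control. It fell in the nanocluster group against Control by 0.58 on the log2 scale (adjusted p = 0.00717). Fgfr4, the hepatocyte receptor of the gut hormone Fgf15 and a kinase that lenvatinib inhibits, averaged 7.30 ± 0.625 FPKM in Co+Len@OVA+anti-PD1, 14.2 ± 1.10 FPKM in Lenvatinib+anti-PD1 and 13.6 ± 1.71 FPKM in Control. Fgfr4 fell in the nanocluster group against Control by 0.85 (adjusted p = 0.00107), and its difference of 0.06 in Lenvatinib+anti-PD1 did not pass (adjusted p = 0.699). Hnf4a, a transcription factor that defines hepatocyte identity, averaged 27.0 ± 1.95 FPKM in Co+Len@OVA+anti-PD1, 26.4 ± 1.32 FPKM in Lenvatinib+anti-PD1 and 28.1 ± 0.837 FPKM in Control. Its log2 differences of -0.06, -0.08 and 0.03 in the 3 comparisons did not pass (adjusted p = 0.548, 0.401 and 0.766). Against Control and with libraries 1 and 2 alone, 1 enzyme, 0 transporters and 0 regulators were called in the nanocluster group, and 1 enzyme, 1 transporter and 0 regulators in Lenvatinib+anti-PD1. Between the treatments 6 enzymes, 6 transporters and 1 regulator were called lower and 0 higher. Without Control library 1, 4 regulators rose and 3 fell in Lenvatinib+anti-PD1 against Control.

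**Figure D4:**
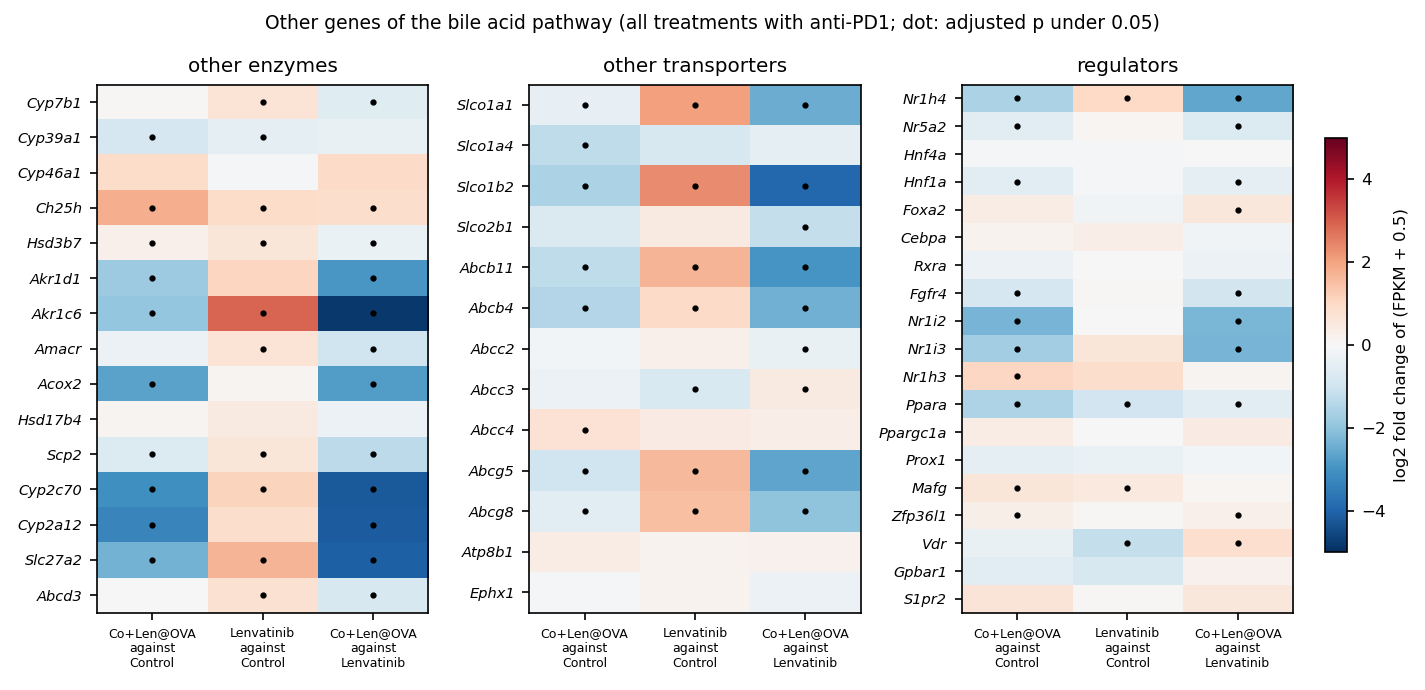
Differences of log2(FPKM + 0.5) (colour, blue for lower and red for higher) of the 15 other enzymes, 13 other transporters and 19 regulators tested (rows) in the 3 comparisons (columns), with a dot where the adjusted p is under 0.05. Akr1c6, Cyp2c70 and Slco1b2 are blue in both comparisons of Co+Len@OVA+anti-PD1 and red for Lenvatinib+anti-PD1 against Control, while Ch25h is red in all 3 columns and Hnf4a stays between -0.08 and 0.03.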

How the data were processed

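Polyadenylated tumour RNA was sequenced as strand-marked (dUTP) libraries in paired reads of 150 bases, per the labels' protocols. Of the tools, fastp, StringTie and edgeR appear in the submitters' processing notes. Aligner, build and annotation: not given in the sources used here. The authors deposited FPKM for 32761 genes, per the file headers. Column totals were 331611 to 372794 FPKM. A search for whole-fragment steps placed at most 24.5% of low values on whole fragments, where the tolerance alone gives 10%, so no read counts could be recovered and depth is unknown. FPKM were used without further scaling. limma 3.58.1 in R 4.3.3 (trend and robust variance, 6 residual degrees of freedom) was fitted to log2(FPKM + 0.5) of the 15353 genes averaging 0.5 FPKM or more, in 1 fit of 9 libraries, with Benjamini-Hochberg adjustment at 0.05, and checked on simulated data. Relative levels were compared by exact permutation.

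All 7 bile acid genes are named. Other named genes are up to 6 per list by adjusted p plus fixed regulators and transporters, and the 3 most alike in profile. The genes and lists were chosen with earlier results of these data known. In GENCODE vM21, no exon of another gene overlaps the 7 genes.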

Additional observations from a re-analysis of the deposited data

How the results depend on the processing

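No log2 difference of the 7 genes changed sign under the 20 alternatives run in each comparison: another pseudocount, filter, variance model or scaling, fits of 2 groups, a replicate block, libraries 1 and 2 alone, and leaving out each library. With libraries 1 and 2 alone, genes past the threshold numbered 0 in Co+Len@OVA+anti-PD1 against Control, 0 in Lenvatinib+anti-PD1 against Control (1 at an unadjusted p under 0.05 by limma) and 3 between the treatments. Leaving out 1 library gave 5 to 7, 1 to 6 and 6 to 7 genes in these comparisons. For Lenvatinib+anti-PD1 against Control the count was 2 with totals equalised without mitochondrial genes, and 2 without Control library 2, where Cyp27a1 fell by 0.62 (adjusted p = 0.0357). A fit of 2 groups alone gave 5 in Co+Len@OVA+anti-PD1 against Control, losing Cyp7a1 (adjusted p = 0.0531) and Cyp8b1 (adjusted p = 0.0537). A replicate block left the counts at 7, 1 and 7; same-numbered libraries did not deviate together (correlations -0.25 to 0.08). Median-of-ratios scaling moved the median of all genes in Co+Len@OVA+anti-PD1 against Control by over 0.1, to 0.00, and the split of calls to 2817 lower and 2060 higher, against 1946 and 3209 as deposited; with libraries 1 and 2 alone it was 63 and 17. In the other comparisons, libraries 1 and 2 alone called 20 lower and 33 higher, against 1516 and 2120, for Lenvatinib+anti-PD1 against Control, and 297 and 68, against 1850 and 2657, between the treatments.

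Relative to the hepatocyte marker median, 5 of the 7 genes did not overlap between groups in Co+Len@OVA+anti-PD1 against Control, 3 in Lenvatinib+anti-PD1 against Control and 5 between the treatments. Among the tested genes outside the marker list 99.3%, 48% and 99.1% did not overlap, so these counts are not particular to the 7 genes. Against Control they numbered 3 in Co+Len@OVA+anti-PD1 with a pseudocount of 0.1, and 6 in Lenvatinib+anti-PD1 relative to Alb alone. Leaving out 1 library gave 5 to 6 in the nanocluster group and 3 to 5 in Lenvatinib+anti-PD1 against Control, and 5 to 7 between the treatments. Among genes whose groups did not overlap, signs turned in Co+Len@OVA+anti-PD1 against Control for Baat, to -0.25 with a pseudocount of 0.1, -0.078 with the marker mean and -1.20 with Alb, and for Cyp8b1, to -0.60 with Alb. In Lenvatinib+anti-PD1 against Control, Baat turned to 1.01 with Alb. Between the treatments, a pseudocount of 0.1 gave -0.45 for Cyp8b1, -0.11 for Baat and -0.52 for Nr0b2, and Alb gave -1.05 for Cyp7a1, -2.13 for Cyp8b1, -2.21 for Baat and -1.43 for Nr0b2. Among genes whose groups overlapped, Alb turned Slc27a5 to -1.27 and Slc10a1 to -1.49 in the first comparison, Slc10a1 to 1.05 in the second, and both to -2.75 and -2.54 in the third, and a pseudocount of 0.1 or the marker mean turned both in the first and the third. The cause was not tested. With the depth unknown, no counting error can be given for any value.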

Other observations

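Markers of the 2 zones of the liver lobule were counted for Lenvatinib+anti-PD1 against Control. Over all tested genes 13.8% were called higher and 9.87% lower in this comparison. Of 12 markers of pericentral hepatocytes, where Cyp7a1 is mostly made in normal mouse liver, 7 rose and 0 fell, and 10 had a positive difference. The 2 with a negative difference, Glul (-0.14) and Tbx3 (-0.72), were not called. Cyp1a2, a xenobiotic-metabolising enzyme, averaged 55.7 ± 5.28 FPKM in Lenvatinib+anti-PD1 and 4.79 ± 1.04 FPKM in Control (SD, n = 3 each; log2 difference 3.43, adjusted p = 0.000222 by limma). Of 12 markers of periportal hepatocytes, 1 rose and 2 fell, counts near the shares of all genes, and 7 had a positive difference. Cyp2f2, the periportal cytochrome P450 that rose, averaged 19.5 ± 0.727 FPKM in Lenvatinib+anti-PD1 and 3.00 ± 2.01 FPKM in Control (log2 difference 2.69, adjusted p = 0.0044). Arg1, the arginase of the urea cycle, which macrophages also express, averaged 33.4 ± 2.42 FPKM in Lenvatinib+anti-PD1 and 110 ± 3.89 FPKM in Control (log2 difference -1.71, adjusted p = 5.74e-05). Ass1, another urea cycle enzyme, averaged 166 ± 4.53 FPKM in Lenvatinib+anti-PD1 and 381 ± 53.6 FPKM in Control (log2 difference -1.19, adjusted p = 0.000444). Without Control library 1, 9 pericentral markers rose, and 5 periportal markers rose and 3 fell. With libraries 1 and 2 alone, 0 pericentral markers rose and 1 periportal marker fell. The difference between the zones was not tested, and these genes were picked for naming after their values were seen.

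Markers of bile duct cells were lower in the nanocluster group. Of 8 cholangiocyte markers tested, 5 fell and 0 rose in Co+Len@OVA+anti-PD1 against Control, and with libraries 1 and 2 alone 0 were called. Of all tested genes 12.7% were called lower and 20.9% higher in this comparison. Krt19, a duct keratin also made by some hepatomas, averaged 77.9 ± 16.2 FPKM in Co+Len@OVA+anti-PD1 and 169 ± 25.7 FPKM in Control (SD, n = 3 each; log2 difference -1.12, adjusted p = 0.0019 by limma). The duct genes Cftr, a chloride channel, Sctr, the secretin receptor, and Slc10a2, a bile acid transporter, were too low to be tested.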
